A study of Canis lupus familiaris with 12 samples.

Results

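The class II genes of the dog major histocompatibility complex were followed in 6 hippocampal RNA-seq libraries, 3 from beagles after 2 weeks of rapid atrial pacing and 3 from beagles after a sham operation. Rapid pacing drives the atria electrically and is used to bring on atrial fibrillation, and the series was designed to relate atrial fibrillation to cognitive impairment. The labels give neither age nor sex, nor do they state that each library came from a separate dog, so the spread between libraries may be technical. The set holds 10 genes of the 31158 gene models in the deposited table: 9 were found under the symbol given in the list, and DLA-DRB1 was found as HLA-DRB1, its symbol in the table, through a synonym in the RefSeq gene table. The genes were chosen by name and region with the pacing and sham values already known, so their differences between arms are given as a description, with no test.

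Class II molecules are surface receptors that show peptides from internalised proteins to CD4+ T cells. Each is a pair of an alpha and a beta chain, which in dogs form DR and DQ receptors. The invariant chain CD74 escorts new pairs to endosomes and blocks their groove, DM exchanges the blocking peptide for others, and DO holds DM back. CIITA, a transactivator induced by interferon gamma, switches on the whole group. In brain, class II is borne mostly by microglia and by the macrophages of vessels and meninges. Because whole tissue was sequenced, fewer cells of a type and less RNA per cell cannot be told apart.

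Of the 10 genes, 8 lie on chromosome 12 of the dog assembly CanFam3.1, whose sequence names the table uses. DLA-DRA (2133026 to 2137825, plus strand) and DLA-DRB1 (2151409 to 2164564, minus) come first. They are followed by DLA-DQA1 (2221181 to 2227600, plus), LOC100856137 (2244820 to 2250822, minus) and DLA-DQB1 (2305307 to 2307711, minus). DLA-DMB (2503325 to 2508380), DLA-DMA (2516974 to 2534085) and DLA-DOA (2563673 to 2568328) follow, all on the minus strand. CD74 lies on chromosome 4 from 58689745 to 58698421, and CIITA on chromosome 6 from 31774486 to 31837025. DLA-DMA shares 52 exon bases with BRD2 on the opposite strand, and no other member shares exon bases with another gene model. The strand setting of the counting is not stated, so reads in those 52 bases cannot be assigned to either gene.

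LOC100856137 has no gene name in the files, and RefSeq lists it as protein coding. Its exon structure, which was not used to choose it, shared block lengths with the beta chain genes. Exon blocks 2 to 5 of LOC100856137, in transcript order, were 270, 282, 111 and 24 bases long, and those of DLA-DRB1 were also 270, 282, 111 and 24 bases long. The DLA-DQB1 model of this table has 4 blocks of 284, 111, 24 and 323 bases and no block of 270 bases, while the last block of LOC100856137 was 324 bases long. In this table LOC100856137 lies between DLA-DQA1 and DLA-DQB1. In the RefSeq gene order of the later assembly UU_Cfam_GSD_1.0 it lies after DLA-DQB1. How reads shared by similar beta chain genes were counted is not stated, so the values of DLA-DRB1, DLA-DQB1 and LOC100856137 are uncertain. The same holds for alleles that differ from the reference, because DRB1, DQA1 and DQB1 are highly variable between dogs.

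The libraries held 35003483 to 51789497 assigned reads. The table gives RPKM, reads scaled to exon length and to the assigned reads of the library, so levels of different genes are compared per length below. Neuronal, astrocytic and microglial markers were present as the tissue label has it, with the neuronal gene SNAP25 at 976 ± 139 RPKM in the pacing libraries and 776 ± 170 RPKM in the sham libraries (n = 3 each, SD here and below). Sham replicate 2 stood apart from the rest, at 39.6 on a first principal component with 45.3% of the variance, where the other libraries lay between -13.5 and 8.61. Sham replicate 3 stood apart on the second component, at -29.1. Across all 16090 genes with a mean of at least 0.5 RPKM, limma called 3 genes higher and 1 lower in pacing at an adjusted p under 0.05, or 0.0249% of those tested, and 9.15% had an unadjusted p under 0.05.

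Levels differed widely between the class II genes. In pacing hippocampus the order by mean RPKM was CD74, DLA-DRA, LOC100856137, DLA-DRB1, DLA-DQA1, DLA-DMB, DLA-DMA, DLA-DOA, DLA-DQB1 and CIITA. DLA-DRA overlapped LOC100856137 over the libraries, LOC100856137 overlapped DLA-DRB1, and DLA-DQB1 overlapped CIITA. In sham hippocampus DLA-DRB1 came next after CD74 and then DLA-DRA, with overlapping ranges, and LOC100856137 overlapped DLA-DQA1. DLA-DOA and DLA-DQB1 overlapped there too, as did DLA-DQB1 and CIITA. A mean of at least 0.5 RPKM was reached by 7 of the 10, down to DLA-DMA at 0.709 RPKM over all libraries, and missed by DLA-DOA at 0.311, DLA-DQB1 at 0.124 and CIITA at 0.0569 RPKM.

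CD74, DLA-DRA and LOC100856137 had every pacing library above every sham library. For 3 of 10 members the arms thus did not overlap in this direction, where 4.92% of all genes tested did. No member had all pacing libraries below all sham libraries, against 11.3% of genes tested. By mean RPKM 8 members were higher and 2 lower in pacing. Because the list was chosen with these values in view, nothing further is read from these counts. The summed level of the 10 genes was 110, 127 and 113 RPKM in pacing replicates 1, 2 and 3, against 72.7, 86.9 and 63.5 RPKM in sham replicates 1, 2 and 3. Most of that sum in each library came from CD74, DLA-DRA and LOC100856137, so it says little about the other members.

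CD74, the invariant chain, was the most abundant member. It stood at 48.5, 56.4 and 47.7 RPKM in the pacing libraries and at 34.0, 37.0 and 31.5 RPKM in the sham libraries. The 3 pacing libraries were all above the highest sham library, and the means were 50.9 ± 4.78 RPKM against 34.2 ± 2.74 RPKM, a ratio of 1.49. These values rest on 10153 assigned reads in pacing and 7955 in sham. The difference in mean log2(RPKM + 1) was 0.56, and it lay between 0.48 and 0.62 when each library was left out in turn.

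DLA-DRA, the alpha chain of DR, had 20.1, 23.9 and 20.2 RPKM in pacing against 13.8, 13.3 and 9.25 RPKM in sham. Again no sham library reached the lowest pacing library. The mean was 21.4 ± 2.13 RPKM in pacing and 12.1 ± 2.5 RPKM in sham, 1.77 times as high in pacing, and the difference on the log2(RPKM + 1) scale was 0.79 (0.62 to 0.88 with each library left out). Its beta chain partner DLA-DRB1 had another pattern, with 14.5, 15.8 and 20.5 RPKM in pacing and 12.3, 25.3 and 11.2 RPKM in sham. Sham replicate 2 was the highest of all 6 libraries for DLA-DRB1, and the arms overlapped. The log2 difference of DLA-DRB1 was 0.13, became 0.48 without sham replicate 2, and turned negative on leaving out pacing replicate 3 (-0.01), sham replicate 1 (-0.01) or sham replicate 3 (-0.07).

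**Figure D1:**
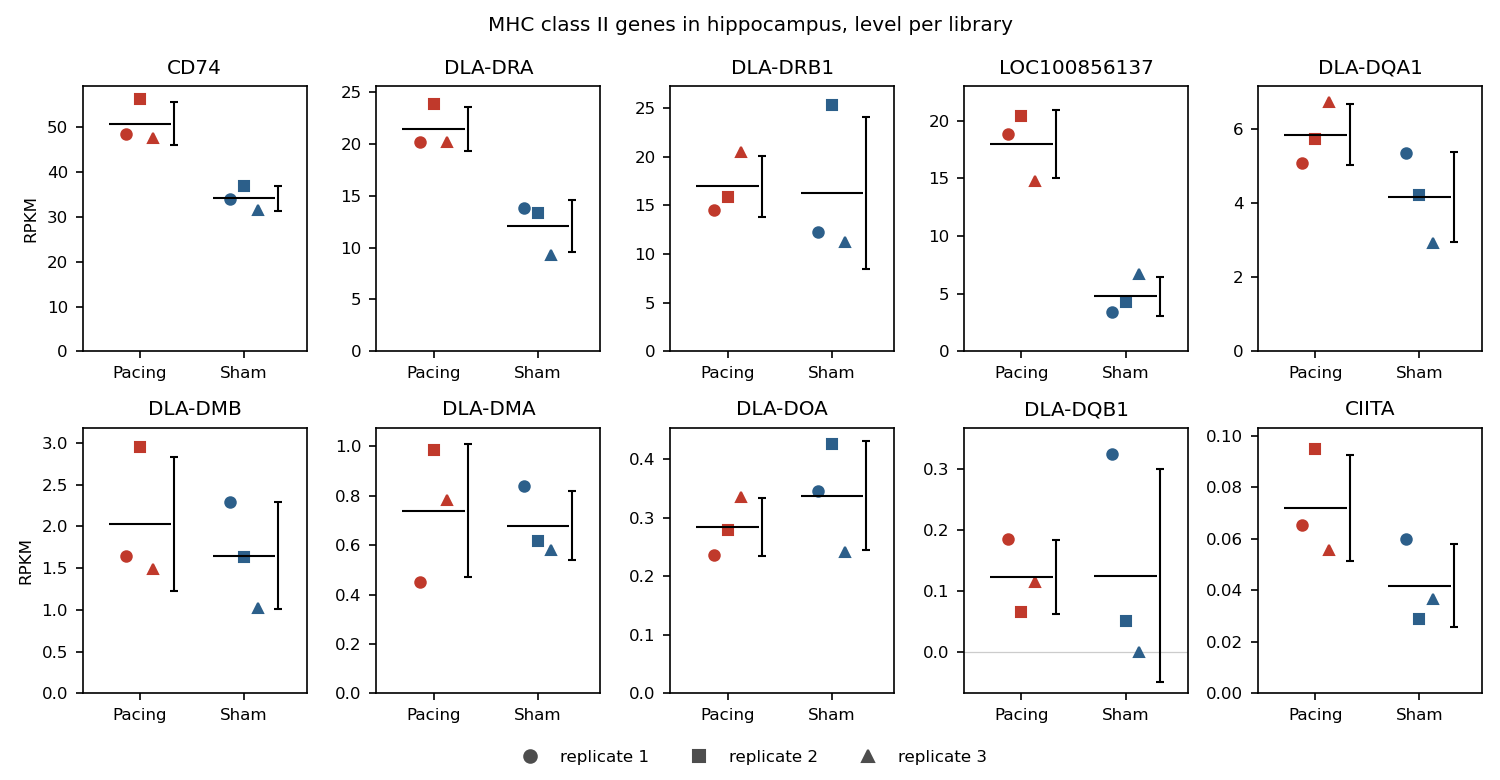
RPKM of each class II gene (vertical axis, one scale per gene) in the 3 pacing libraries (red, left) and the 3 sham libraries (blue, right). Symbols mark the replicate number, lines the arm mean and bars the SD, and the arms are apart for CD74, DLA-DRA and LOC100856137 and overlap for the other 7 genes.

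Among the DQ genes, DLA-DQA1, the alpha chain, had 5.08, 5.71 and 6.71 RPKM in pacing and 5.34, 4.21 and 2.91 RPKM in sham. Sham replicate 1 lay above pacing replicate 1, so the arms overlapped, although the mean was 5.83 ± 0.821 in pacing against 4.16 ± 1.22 in sham. The log2 difference was 0.43, ranging from 0.24 without sham replicate 3 to 0.59 without sham replicate 1. DLA-DQB1, the annotated beta chain of DQ, had almost no reads: 6, 2 and 3 in the pacing libraries and 12, 2 and 0 in the sham libraries. The 0 reads of sham replicate 3 allow up to 0.111 RPKM (3 reads, counting error only), and pacing replicate 2, sham replicate 2 and sham replicate 3 were all under such a limit. No difference in DLA-DQB1 was detectable at this depth.

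LOC100856137, the neighbour with the beta-type exon lengths, differed most between the arms of all members. It stood at 18.9, 20.4 and 14.7 RPKM in pacing and at 3.38, 4.31 and 6.67 RPKM in sham, so that the lowest pacing library was well above the highest sham library. Assigned reads numbered 2622 in pacing and 769 in sham. The means were 18.0 ± 2.93 and 4.79 ± 1.70 RPKM, a ratio of 3.76, and the log2 difference was 1.74 (1.56 to 1.97 with each library left out, and 1.24 at a pseudocount of 5). Of the 16090 genes tested, 10 had a larger positive difference.

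**Figure D2:**
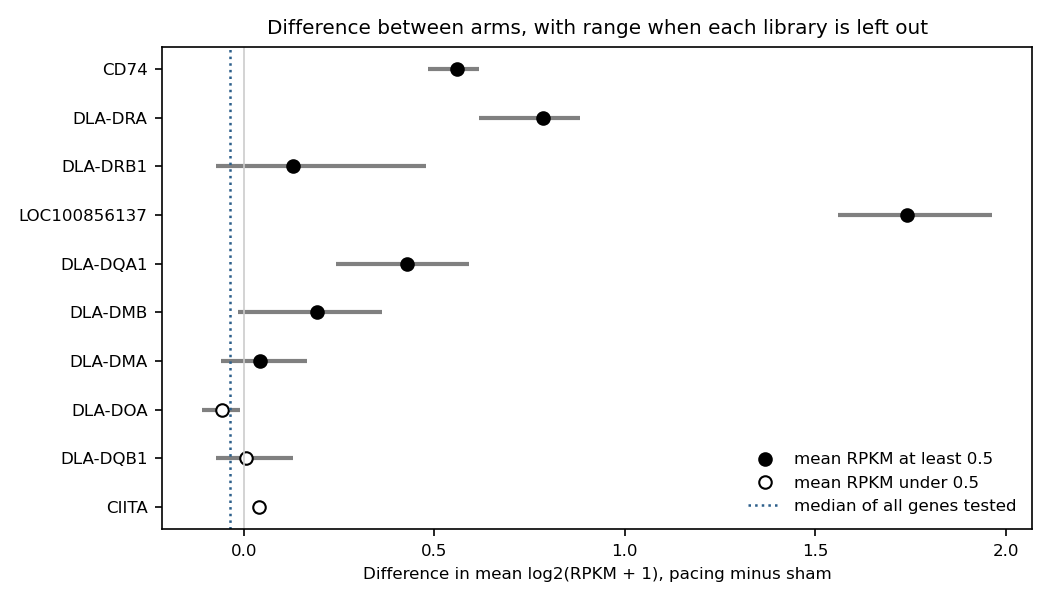
Difference in mean log2(RPKM + 1) between pacing and sham (horizontal axis) for each class II gene, with a grey line for the range over fits that leave out 1 library. Filled points are genes with a mean of at least 0.5 RPKM and the dotted line is the median of all 16090 genes tested, -0.04. CD74, DLA-DRA, LOC100856137 and DLA-DQA1 stay above 0, as does CIITA, though only at 0.03 to 0.05. DLA-DOA stays below 0 (-0.11 to -0.01), and the ranges of DLA-DRB1, DLA-DMB, DLA-DMA and DLA-DQB1 cross 0.

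The peptide exchange genes were low and overlapped between the arms. DLA-DMB, the beta chain of DM, had 1.64, 2.95 and 1.49 RPKM in pacing against 2.30, 1.63 and 1.02 RPKM in sham. DLA-DMA, its alpha chain, had 0.451, 0.985 and 0.783 RPKM in pacing against 0.840, 0.616 and 0.581 RPKM in sham. Pacing replicate 2 was the highest library for both, and without it the log2 difference of DLA-DMB turned from 0.19 to -0.02 and that of DLA-DMA from 0.04 to -0.06. DLA-DOA, the alpha chain of DO, had 0.237, 0.279 and 0.336 RPKM in pacing and 0.346, 0.426 and 0.241 RPKM in sham, from 91 reads in pacing and 131 in sham. Its mean was the lower one in pacing, with overlapping libraries.

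CIITA, the transactivator, was the lowest member at 0.0654, 0.0950 and 0.0555 RPKM in pacing and 0.0599, 0.0289 and 0.0368 RPKM in sham. Only 58 reads in pacing and 39 in sham lay behind these values, over 6688 bases of exon. Sham replicate 1 lay between the pacing libraries, so the arms overlapped. Without sham replicate 1, 6 of the 10 members had all pacing libraries above all sham libraries, with DLA-DQA1, DLA-DQB1 and CIITA added, and 12.8% of all genes tested did so as well. For DLA-DQB1 this rests on 6, 2 and 3 reads in pacing against 2 and 0 in sham replicates 2 and 3. DLA-DQB1 and CIITA were under the expression minimum, so they are not among the genes behind the 12.8%.

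Ratios between members within a library do not depend on how libraries are scaled. CD74 over DLA-DRA was 2.41, 2.36 and 2.36 in pacing, a narrow range, and 2.46, 2.78 and 3.41 in sham. DLA-DRB1 over DLA-DRA was 0.720, 0.663 and 1.01 in pacing and 0.891, 1.90 and 1.22 in sham, with sham replicate 2 the highest. DLA-DQA1 over DLA-DRA was 0.252, 0.239 and 0.332 in pacing and 0.387, 0.317 and 0.315 in sham. For the CD74 ratio all pacing libraries were below all sham libraries, but only narrowly, at 2.41 in pacing replicate 1 against 2.46 in sham replicate 1. That gap was not set against counting error. The DLA-DRB1 and DLA-DQA1 ratios to DLA-DRA overlapped. LOC100856137 over DLA-DRB1 was 1.30, 1.29 and 0.718 in pacing and 0.275, 0.170 and 0.594 in sham, with every pacing library above every sham library. Both genes of that ratio carry the uncertainty of reads shared between beta chain genes.

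LOC100856137 did not follow DLA-DQA1 from library to library. LOC100856137 over DLA-DQA1 was 3.72, 3.57 and 2.19 in pacing and 0.633, 1.02 and 2.29 in sham. Sham replicate 3 had the most LOC100856137 and the least DLA-DQA1 of its arm, and pacing replicate 3 the least LOC100856137 and the most DLA-DQA1 of its arm. After the arm means were taken off, the deviations of these neighbours had a Pearson r of -0.95 over the 6 libraries. Deviations of CD74 and DLA-DRA had an r of 0.79, those of DLA-DRA and DLA-DMB 0.88 and those of DLA-DRA and DLA-DQA1 0.76. Those of DLA-DRB1 and DLA-DRA had 0.39. All these are descriptions of 6 libraries in which each pair of genes shares its depth and tissue piece.

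**Figure D3:**
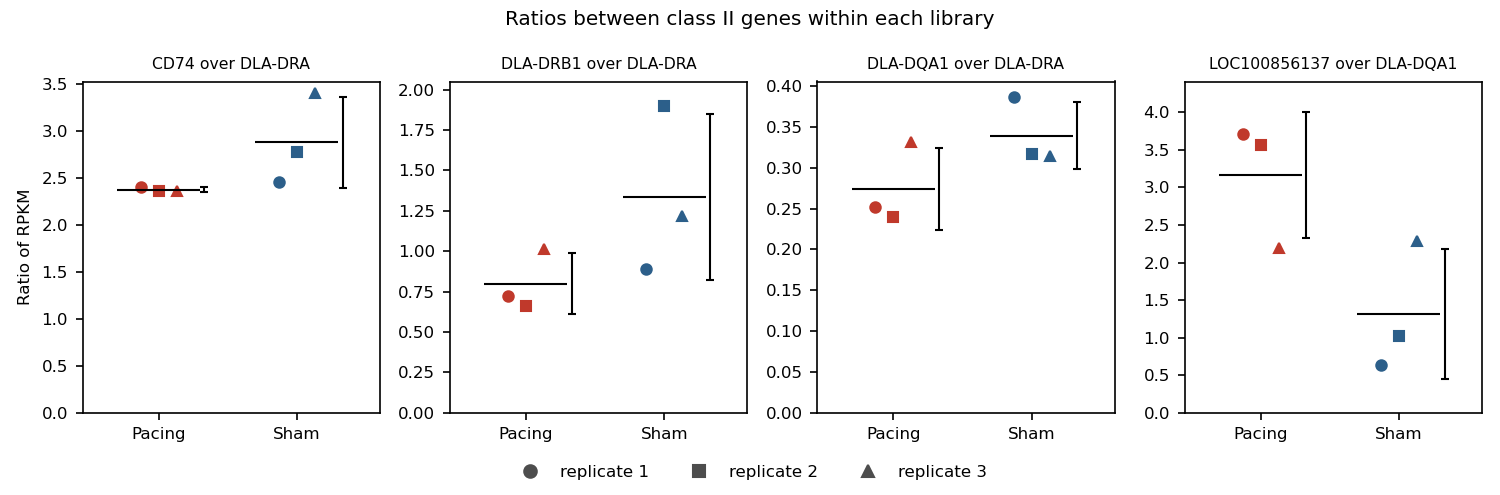
Ratio of RPKM between pairs of class II genes (vertical axis) in each pacing library (red, left) and sham library (blue, right), with the mean as a line and the SD as a bar. CD74 over DLA-DRA is 2.36 to 2.41 in pacing and 2.46 to 3.41 in sham, and LOC100856137 over DLA-DQA1 is 2.19 to 3.72 in pacing and 0.633 to 2.29 in sham.

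The chromosomal neighbours of the class II genes were compared next, since they were not used to choose the list. Within 200000 bases of a member on chromosome 12 lay 35 other gene models, of which 23 had a mean of at least 0.5 RPKM. None of the 23 passed with limma after Benjamini-Hochberg adjustment over all genes, and 2 had an unadjusted p under 0.05. By mean 6 were higher and 17 lower in pacing. TAP2, which carries peptides to class I molecules, lies between DLA-DQB1 and DLA-DMB and stood at 7.03, 6.52 and 6.67 RPKM in pacing against 9.98, 8.46 and 9.68 RPKM in sham (log2 difference -0.42 ± 0.10 SE, adjusted p = 0.350). TAPBP, the class I loading factor tapasin, stood at 1.73 ± 0.238 against 2.30 ± 0.209 RPKM (-0.28, adjusted p = 0.532). WDR46 (-0.20), LOC111098219 (-0.36) and MIR219-1 (-0.82) were next by p and did not pass either. MIR219-1 rests on 3 reads in pacing and 18 in sham, with 0 RPKM in pacing replicate 1 and in sham replicate 3.

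**Figure D4:**
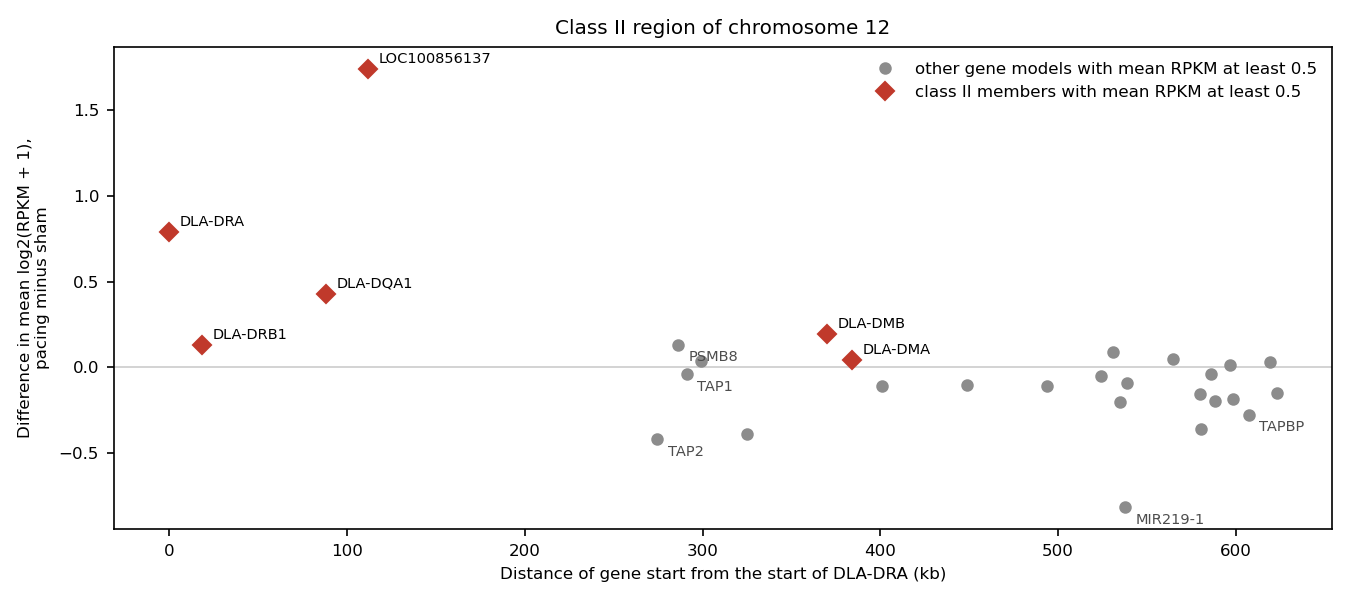
Difference in mean log2(RPKM + 1) between pacing and sham (vertical axis) against the distance of each gene's start from the start of DLA-DRA in kilobases (horizontal axis). Red diamonds are class II genes and grey points other gene models, both with a mean of at least 0.5 RPKM. LOC100856137 is highest at 1.74, and the neighbours lie between -0.82 and 0.13. The lowest is MIR219-1, with 3 reads in pacing and 18 in sham.

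Genes that regulate class II or prepare its peptides were taken as a list of 19 genes in the table, 18 of them tested. With limma 0 passed over all genes, and 2 had an unadjusted p under 0.05. By mean 8 were higher and 10 lower in pacing, and the median log2 difference was -0.05, against -0.04 for all genes tested. The list includes the factors that bind class II promoters. NFYA, a CCAAT-binding subunit, stood at 5.16, 4.50 and 4.51 RPKM in pacing and 5.42, 11.6 and 8.95 RPKM in sham (log2 difference -0.70, adjusted p = 0.455). RFXAP, a subunit of the RFX complex, stood at 3.03 ± 0.279 against 3.84 ± 0.214 RPKM (-0.27, adjusted p = 0.516) and CREB1 at 6.73 ± 0.214 against 7.77 ± 1.0 RPKM (-0.18, adjusted p = 0.641). RFX5, the DNA-binding subunit, measured 2.92 ± 0.158 RPKM against 2.87 ± 0.372 RPKM.

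Among the processing enzymes, CTSS, the protease that trims the invariant chain, measured 24.4 ± 3.02 RPKM in pacing against 21.7 ± 3.48 in sham (adjusted p = 0.724). The lysosomal reductase IFI30 stood at 8.72 ± 1.25 against 11.3 ± 4.07 RPKM (adjusted p = 0.714). MARCH1, a ubiquitin ligase that removes class II from the surface, stood at 1.72 ± 0.0199 against 1.65 ± 0.403 RPKM. DLA-DOB, the partner of DLA-DOA, was under the expression minimum, at 0.339 ± 0.131 RPKM in pacing and 0.260 ± 0.149 in sham.

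The interferon gamma axis, which induces CIITA, had 14 tested genes of 15 in the table, and 0 passed with limma. The interferon gamma gene itself was not analysed here. At an unadjusted p under 0.05 there were 2, and by mean 5 were higher and 9 lower in pacing (median -0.04). IFNAR2, a type I interferon receptor chain, stood at 4.66 ± 0.324 against 5.94 ± 0.418 RPKM (adjusted p = 0.474), the phosphatase PTPN2 at 9.75 ± 0.582 against 11.8 ± 1.12 (adjusted p = 0.543) and the kinase JAK2 at 9.76 ± 0.825 against 7.99 ± 1.47 (adjusted p = 0.597). The receptor chain IFNGR1 measured 9.41 ± 0.665 RPKM in pacing against 10.7 ± 0.737 RPKM in sham.

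Class I presentation genes gave 0 passing genes of 18 tested with limma, 3 having an unadjusted p under 0.05. B2M, the light chain of class I, stood at 98.9, 101 and 90.6 RPKM in pacing and 80.8, 61.7 and 80.0 RPKM in sham (log2 difference 0.39, adjusted p = 0.455). Its arms did not overlap, as for 4.92% of all genes tested in this direction. TAP2 and TAPBP had all pacing libraries below all sham libraries, as 11.3% of genes tested did. By mean 10 of the 18 genes were lower in pacing, and the median was -0.04.

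Markers of cells that can bear class II were measured beside these results, and their part in the class II values was not tested. Of 20 microglial markers in the table, all tested, 0 passed with limma, and 3 had an unadjusted p under 0.05. By mean 12 were higher and 8 lower in pacing, with a median log2 difference of 0.12, and none was at 0 in all libraries. Their summed level was 155 to 179 RPKM in pacing and 139 to 226 RPKM in sham, with overlap. The homeostatic marker TMEM119 stood at 1.61 ± 0.171 RPKM in pacing against 0.897 ± 0.201 RPKM in sham (adjusted p = 0.36), and the purine receptor P2RY12 at 7.45 ± 0.640 against 5.08 ± 1.65 (adjusted p = 0.529).

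The mean log2(RPKM + 1) of the 20 microglial markers was 2.59, 2.72 and 2.58 in pacing and 2.44, 2.79 and 2.5 in sham. Taken against that mean in the same library, CD74 lay 3.04, 3.12 and 3.02 above it in pacing and 2.69, 2.46 and 2.52 above it in sham. DLA-DRA lay 1.82 to 1.91 above it in pacing and 0.85 to 1.45 in sham, and LOC100856137 lay 1.39 to 1.73 above it in pacing and between -0.38 and 0.44 in sham. For these 3 genes the arms were apart after this step as they were before it. DLA-DRB1, DLA-DQA1, DLA-DMA and DLA-DMB overlapped after it too.

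**Figure D5:**
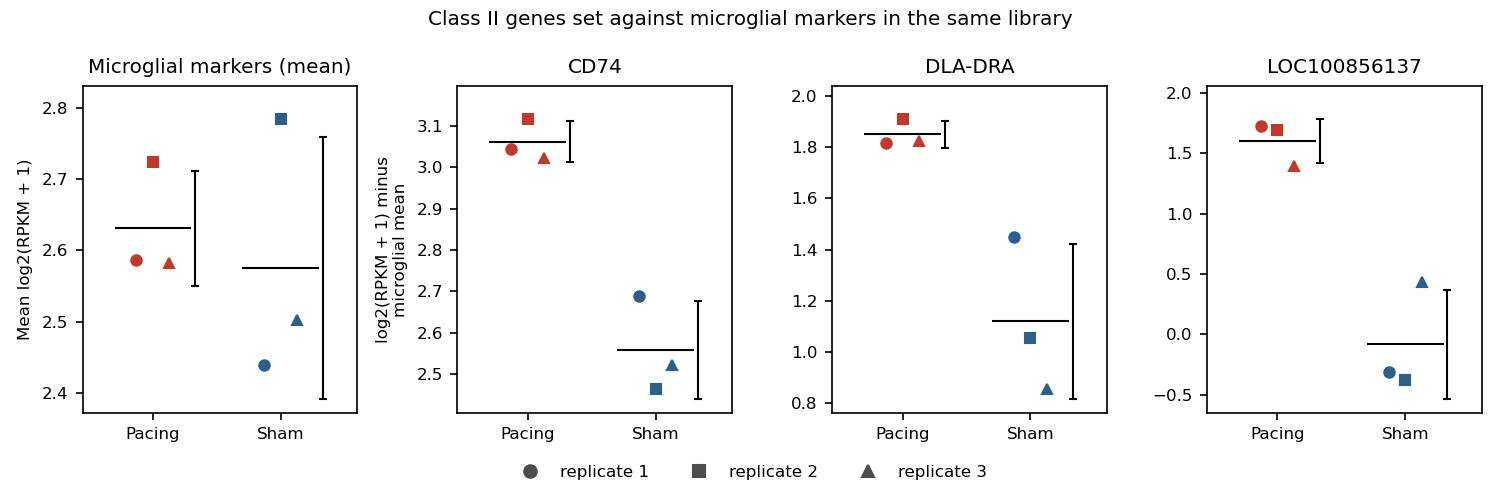
Left panel, mean log2(RPKM + 1) of 20 microglial markers in each pacing library (red) and sham library (blue). The other panels give log2(RPKM + 1) of CD74, DLA-DRA and LOC100856137 minus that mean in the same library, with the arm mean as a line and the SD as a bar. The marker means overlap between the arms, and the 3 class II genes do not.

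Border macrophage markers had 6 tested genes of 9 in the table, with 2 higher and 4 lower by mean, 0 passing and 2 with an unadjusted p under 0.05. Their summed level was 27.3 to 34.3 RPKM in pacing and 23.7 to 62.8 RPKM in sham. CD163, a scavenger receptor of these cells, stood at 8.80, 12.02 and 10.3 RPKM in pacing and 4.62, 9.88 and 3.49 RPKM in sham (adjusted p = 0.522). LYVE1 stood at 11.2 ± 0.574 against 23.1 ± 14.6 RPKM (adjusted p = 0.611), and MS4A7 at 1.26 ± 0.0943 against 1.96 ± 0.626 RPKM (adjusted p = 0.544). The members of this list thus differed in direction.

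Lymphocyte markers covered a wide range of levels. Of 10 B cell markers 2 were tested and 0 passed, and the list summed to 14.5 to 16.5 RPKM in pacing and 10.7 to 14.8 in sham. Most of this sum was JCHAIN, an immunoglobulin joining chain, at 13.2 ± 1.47 against 10.9 ± 1.73 RPKM (adjusted p = 0.604). CD79B, a signalling chain of the B cell receptor, stood at 1.31 ± 0.236 RPKM in pacing against 1.22 ± 0.406 RPKM in sham (adjusted p = 0.906). The B cell surface gene MS4A1, chosen after its values were seen, had 4 reads in pacing and 6 in sham. Of 12 T cell markers 5 were tested and 0 passed with limma, with 3 higher and 2 lower in pacing by mean. The T cell list summed to 47.1 to 52.9 RPKM in pacing and 40.2 to 42.0 in sham, without overlap. Most of that sum was CD247 at 45.3 ± 3.31 against 38.2 ± 0.688 RPKM (adjusted p = 0.516), so the sum says little about the other T cell markers.

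CD2, an adhesion molecule of T cells, stood at 0.881, 1.41 and 0.609 RPKM in pacing and 0.377, 0.363 and 0.412 RPKM in sham (adjusted p = 0.438). The T cell receptor signalling chains CD3E and CD3G and the co-receptor CD4 were under the expression minimum and were chosen after their values were seen. CD3E had 43 reads in pacing and 9 in sham, CD3G had 18 and 0, and CD4 had 15 and 59. The rest of the T cell list under the minimum was mixed: CD3D had 6 and 6, ZAP70 100 and 93, CD8A 12 and 1 and CD28 4 and 1. None of these genes was tested. Dendritic cell markers had 3 tested genes of 6 in the table, all lower by mean and none passing, with FLT3 at 1.05 ± 0.117 against 1.5 ± 0.422 RPKM (adjusted p = 0.596). The dendritic list summed to 4.35 to 5.22 RPKM in pacing and 4.11 to 6.89 in sham. Monocyte and neutrophil markers summed to 29.3 to 31.8 RPKM in pacing and 17.8 to 49.4 in sham, with 0 of 5 tested genes passing and 0 at an unadjusted p under 0.05. Of the markers of other brain cells, 0 of 7 tested astrocyte, 0 of 10 endothelial and 0 of 10 neuronal genes passed with limma, and 0, 1 and 0 of them had an unadjusted p under 0.05.

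Genes with a pattern most like that of the class II set were taken by Pearson r with the mean log2(RPKM + 1) of the 7 members that passed the minimum, over the 6 libraries and 12761 other named genes. In order they were PHOSPHO2, TCHP, SH3RF3, BCR, TMEM119, TBC1D23, CLEC1A, INPP5D, LPAR5 and OTUD6B, with r from 0.99 to 0.96. An r of at least 0.9 was reached by 107 genes. With the arm means taken off, r was 0.95 for PHOSPHO2, a phosphatase, 0.81 for the microglial TMEM119 and 0.87 for INPP5D, a phosphatase of blood cells and microglia. PHOSPHO2 stood at 9.39, 11.2 and 10.8 RPKM in pacing and 7.38, 8.06 and 6.33 RPKM in sham, and INPP5D at 3.65 ± 0.203 against 2.70 ± 0.397 RPKM. All 10 had higher means in pacing, and because they were picked by this likeness no test is given.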

How the data were processed

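Hippocampal mRNA libraries of 3 pacing and 3 sham samples were used, grouped by their titles. TRIzol RNA went into a stranded mRNA library kit, per the labels' protocols. Trimmomatic 0.36, STAR 2.5.3a and featureCounts are named in the submitters' processing notes, with no annotation release, strand setting or handling of molecular identifiers stated. The deposited values are RPKM, by the authors, and the gene length column is that of the deposited table. RPKM times length gave whole reads for 100% of values in each library (within 0.001 reads), so totals are known. Sequences of the genes were not used here. The exosome miRNA table was not used.

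The members, lists and tests were chosen with earlier results of these data known. Genes with a mean of at least 0.5 RPKM were tested with limma 3.58.1 (limma-trend, R 4.3.3) on log2(RPKM + 1), pacing minus sham, with p-values adjusted by Benjamini-Hochberg over all 16090 genes at 0.05. The log scale with a pseudocount understates differences of low genes. Alternatives changed the pseudocount, filter and scaling, added sample weights or a replicate block, and left out each library. The fits were tested on simulated reads. Named genes were all members, up to 3 of each list and 5 neighbours by smallest p, any class II partner, and the 10 of most like pattern. Some marker lists have fewer genes named. IFNGR1, MS4A1 and the T cell markers under the expression minimum were named outside this rule. RefSeq (UU_Cfam_GSD_1.0) was used for names, gene type and order. Some list genes that the rule would name are not reported here, though they remain in the list counts.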

Additional observations from a re-analysis of the deposited data

How the results depend on the processing

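The count of genes called over the whole table was 4, and it was 7 with no filter, 7 with the replicate number as a block and 23 with sample weights. It ranged from 3 to 95 when each library was left out, with 95 without sham replicate 1 and 9 without sham replicate 2. No list gene and no chromosome neighbour was called under any alternative that was run. The planned count test on whole reads was not run, because the deposited unit is RPKM. The number of members with all pacing libraries above all sham libraries was 3 and ranged from 3 to 6 with each library left out. The 6, without sham replicate 1, included DLA-DQB1 and CIITA, both under the expression minimum. CD74, DLA-DRA and LOC100856137 had all pacing libraries above all sham libraries in every setting run. Only the changes of scaling could have altered this. Leaving out a library, or changing the pseudocount, filter, weights or block, cannot undo such a separation. The median log2 difference of the members that passed was 0.43. It was 0.25 at a pseudocount of 5 and 0.16 with no filter, where all 10 members enter, and ranged from 0.24 without sham replicate 3 to 0.56 without sham replicate 1. Deviations of same-numbered libraries had r of -0.11, 0.06 and -0.01, and not every library correlated best with its own number. With 3 libraries per arm these values cannot show whether a shared number marks a shared animal or day, and no label states it. With the replicate block 0 list genes and 0 neighbours were called. Depth limits DLA-DQB1 (25 reads in all), CIITA (97) and DLA-DOA (222).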

Other observations

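Costimulatory genes, whose products act beside class II on T cells, had 8 tested genes of 11 in the table. With limma 0 passed over all genes, and 2 had an unadjusted p under 0.05, with 4 higher and 4 lower by mean. LGALS9, galectin 9, stood at 3.28, 3.03 and 3.34 RPKM in pacing and 1.41, 2.35 and 1.03 RPKM in sham (log2 difference 0.73, adjusted p = 0.36), with the arms apart. ICAM1, an adhesion molecule, stood at 0.871, 1.14 and 1.2 RPKM in pacing and 2.17, 2.22 and 1.25 RPKM in sham (-0.46, adjusted p = 0.482), with the arms apart in the other direction. VSIR, an inhibitory ligand, stood at 4.30 ± 0.191 against 2.99 ± 1.08 RPKM (0.45, adjusted p = 0.546).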
